A study of Homo sapiens with 7 samples.

Results

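Feedback regulators of mitogen-activated protein kinase (MAPK) signalling were measured in the immortalised HK-2 line, derived from the proximal tubule of a human kidney, after transfection with an siRNA against GLUT2, the glucose transporter encoded by SLC2A2. The 10 genes were chosen by name (DUSP1, DUSP4, DUSP5, DUSP6, DUSP10, SPRY2, SPRY4, SPRED1, ETV4 and ETV5), with the fold changes of this same comparison already known, out of 33694 genes in the count table. All 10 had a row, and 8 of them passed the filter on low counts that 12404 genes passed; SPRY4 and DUSP4 did not. Because the 10 genes were chosen with these fold changes known, their own values are given as a description without a p-value. Both groups carried 50 nM siRNA for 96 h: the 4 scrambled libraries (replicates 1 to 4, genotype WT) received siRNA of scrambled sequence, and the 3 siGLUT2 libraries (replicates 2 to 4, genotype GLUT2-KD) received siRNA against GLUT2. All libraries come from 1 cell line, and in bulk RNA a change in every cell and a change in a share of the cells cannot be told apart.

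Growth factor receptors activate Ras, which drives the kinases Raf, MEK and ERK, and active ERK induces transcription of the genes that switch it off again. Dual-specificity phosphatases (DUSPs) remove the activating phosphates from ERK, JNK or p38, Sprouty and Spred adaptors act between the receptor and Raf, and ETV4 and ETV5 are ETS transcription factors of the PEA3 subfamily that respond to ERK. The transcripts of many of these genes are short-lived, and they are widely used as readouts of ERK output.

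Total counts were 5654957 to 8455963 in the scrambled and 5881366 to 6914302 in the siGLUT2 libraries. SLC2A2 was counted 13, 13, 7 and 17 times in scrambled replicates 1 to 4, whereas no siGLUT2 library held a count (0 of 19230905). Libraries of the siGLUT2 group held fewer detected genes (13433 to 13891 against 14844 to 15036) and more mitochondrial counts (7.04% to 7.56% against 4.91% to 5.53%), and the spread of counts between their replicates, relative to sampling noise, was 8.68 against 4.29 in the scrambled group for genes with a mean count of 10 to 50. Kidney epithelial markers summed to 1663 to 1760 CPM (read counts relative to the TMM-scaled library total) in scrambled and 1210 to 1386 CPM in siGLUT2 libraries, with 3 of 8 tested markers lower and 0 higher. Of 12 proximal tubule markers 5 had at least 5 counts in all, and LRP2, SLC22A6 and SLC22A8 were among those at 0 throughout; the sum of the list was 52.2 to 71.1 and 93.1 to 104 CPM, with 2 of 3 tested markers higher and 0 lower. All 4 endothelial markers were at 0, as were PTPRC, CD3E and LYZ of the leukocyte list, whose sum was 13.8 to 18.6 and 25.9 to 28.5 CPM with the 1 tested marker higher. Fibroblast and pericyte markers summed to 10.4 to 15.7 and 17.2 to 25.5 CPM with COL3A1 at 0 and 1 of 3 tested markers higher and 0 lower, and 5 of 7 markers of other nephron segments were at 0. Whether these differences have a part in the results below was not tested.

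Of the 8 tested members 5 passed an adjusted p of 0.05 as higher after siGLUT2 (DUSP5, DUSP6, DUSP10, SPRY2 and SPRED1), 0 passed as lower, and DUSP1, ETV4 and ETV5 did not pass. Over all tested genes 13.9% passed as higher, 14.4% as lower and 28.3% in either direction. Since the members were chosen on this comparison, nothing is read from their count. The groups did not overlap in scaled CPM for the same 5 members, all higher, and for ETV4, lower; 17.2% of all tested genes had no overlap with siGLUT2 higher and 17.9% with siGLUT2 lower. The median log2 fold change was 1.11 over the 8 tested members and -0.0029 over all tested genes. None of the 8 had passed the filter only through the siGLUT2 group, as the scrambled libraries held 25 or more counts of each.

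**Figure D1:**
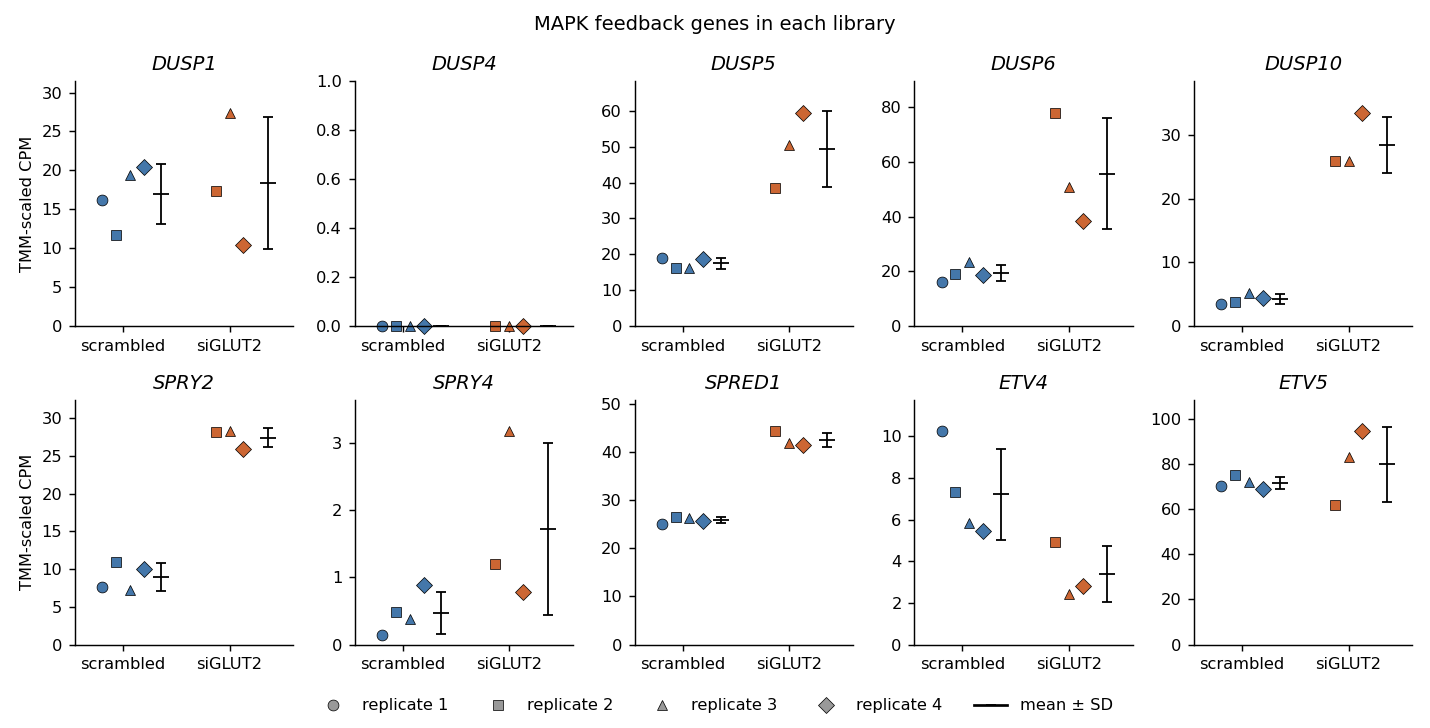
TMM-scaled CPM (vertical axes, each from 0) of the 10 genes in every library; blue symbols are scrambled and orange symbols siGLUT2 libraries, the symbol shape gives the replicate number, and black bars are the mean ± SD (n = 4 and n = 3). DUSP5, DUSP6, DUSP10, SPRY2 and SPRED1 stand apart between the groups, DUSP1 and ETV5 overlap, and DUSP4 is at 0 in all libraries.

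DUSP6 encodes the cytoplasmic phosphatase specific for ERK and is among the most used transcript readouts of ERK activity. Its level was 16.3, 18.9, 23.4 and 18.7 CPM in scrambled replicates 1 to 4 and 77.9, 50.9 and 38.3 CPM in siGLUT2 replicates 2 to 4. All siGLUT2 libraries lay above all scrambled ones, but they differed among themselves by 2.03-fold, with replicate 2 highest and replicate 4 lowest. The means were 19.3 ± 2.97 (SD, n = 4) and 55.7 ± 20.3 CPM (SD, n = 3), a log2 fold change of 1.52 ± 0.21 (SE). The gene lies on the minus strand of GRCh38 chromosome 12 (89347232 to 89353271) and shares exon sequence with the opposite-strand gene AC024909.2, which was at 0.0701 and 0.706 CPM.

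DUSP5 encodes the nuclear phosphatase specific for ERK (chromosome 10, 110497838 to 110511544, plus strand). It was at 18.9, 16.2, 16.2 and 18.7 CPM in the scrambled libraries and at 38.4, 50.6 and 59.4 CPM in siGLUT2 replicates 2, 3 and 4. The scrambled libraries were tight (17.5 ± 1.51 CPM, SD, n = 4) and the siGLUT2 libraries wider and higher (49.5 ± 10.6 CPM, SD, n = 3), a log2 fold change of 1.50 ± 0.19 (SE). Among the siGLUT2 libraries the ranking was the reverse of that of DUSP6: replicate 4 was highest for DUSP5 and lowest for DUSP6.

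DUSP10, a phosphatase that acts on JNK and p38 rather than ERK (chromosome 1, 221701424 to 221742176, minus strand), had the largest fold change of the members. It was at 3.50, 3.72, 5.19 and 4.41 CPM in the scrambled libraries, from 25 to 41 counts each. In the siGLUT2 libraries it was at 25.9, 25.9 and 33.5 CPM, from 152, 180 and 214 counts. The group means of 4.20 ± 0.76 (SD, n = 4) and 28.4 ± 4.35 CPM (SD, n = 3) differed by 6.74-fold in the fit (log2 2.75 ± 0.27, SE).

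DUSP1 and DUSP4 encode nuclear phosphatases of broader substrate range, and neither was called. DUSP1 (chromosome 5, 172768090 to 172771195, minus strand) was at 16.3, 11.8, 19.4 and 20.5 CPM in the scrambled and 17.4, 27.4 and 10.5 CPM in the siGLUT2 libraries. The siGLUT2 libraries held both the highest and the lowest value of the 7, and the log2 fold change of 0.13 ± 0.29 (SE) ran from -0.28 without siGLUT2 replicate 3 to 0.41 without siGLUT2 replicate 4. DUSP4 (chromosome 8, 29333064 to 29350668, minus strand) had 0 counts in each of the 7 libraries. That allows a level of up to 0.103 CPM over the 29109882 counts of the scrambled group and 0.156 CPM over the 19230905 counts of the siGLUT2 group, taking 3 counts as the limit; such limits and the intervals below cover counting error only.

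SPRY2, a Sprouty adaptor that restrains Ras and Raf below growth factor receptors (chromosome 13, 80335976 to 80340951, minus strand), was higher in every siGLUT2 library. Its levels were 7.57, 10.9, 7.21 and 10.1 CPM in the scrambled libraries and 28.1, 28.2 and 26.0 CPM in the siGLUT2 libraries. The siGLUT2 values agreed within 1.09-fold, closer than the scrambled ones (1.51-fold), with means of 8.94 ± 1.83 (SD, n = 4) and 27.4 ± 1.29 CPM (SD, n = 3). Each siGLUT2 library held only 165 to 196 counts of it, so nothing is read from that closeness. The log2 fold change was 1.62 ± 0.24 (SE).

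SPRED1, a membrane-bound Sprouty relative that brings the Ras inhibitor neurofibromin to Ras (chromosome 15, 38252326 to 38357249, plus strand), was the tested member with the least spread. It was at 25.1, 26.6, 26.3 and 25.8 CPM in the scrambled and 44.3, 41.9 and 41.6 CPM in the siGLUT2 libraries. The difference was 1.64-fold (log2 0.72 ± 0.16, SE), the smallest of the 5 called members, with coefficients of variation of 2.60% and 3.52% within the groups. These rest on 146 to 222 counts per scrambled and 260 to 291 per siGLUT2 library, where counting error alone gives spread. Nothing is read from the closeness of these values.

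SPRY4, another Sprouty adaptor (chromosome 5, 142310427 to 142326455, minus strand), was counted too rarely for the test. Scrambled libraries held 1, 4, 3 and 5 counts of it and siGLUT2 libraries 7, 22 and 5, so siGLUT2 replicate 3 alone held most counts of its group. Pooled levels were 0.447 CPM (exact Poisson 95% interval 0.238 to 0.764) and 1.77 CPM (1.22 to 2.47). The libraries overlapped, with scrambled replicate 4 at 0.882 CPM and siGLUT2 replicate 4 at 0.782 CPM, and a fit without the low-count filter gave a log2 fold change of 1.84 with an SE of 1.37.

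ETV4 and ETV5, the transcription factors among the members, were not called in either direction. ETV4 (chromosome 17, 43527844 to 43579620, minus strand) was at 10.2, 7.32, 5.82 and 5.47 CPM in the scrambled libraries and at 4.95, 2.45 and 2.81 CPM in the siGLUT2 libraries, from 17 to 73 counts in each. Every siGLUT2 value lay below every scrambled one by a small margin, and the log2 fold change of -1.09 ± 0.44 (SE) was not called; without siGLUT2 replicate 2 it was -1.45 and was called. Exon sequence of ETV4 overlaps DHX8 on the opposite strand, which was at 26.9 and 32.1 CPM (edgeR adjusted p = 0.384). ETV5 (chromosome 3, 186046308 to 186110318, minus strand) was at 70.5, 75.1, 72.2 and 69.1 CPM and at 62.1, 83.3 and 94.6 CPM. Its siGLUT2 libraries fell on both sides of the scrambled ones, with a log2 fold change of 0.16 ± 0.14 (SE). ETV5 shares exon sequence with DGKG on the same strand, which was at 7.72 and 13.6 CPM (edgeR adjusted p = 0.0796).

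**Figure D2:**
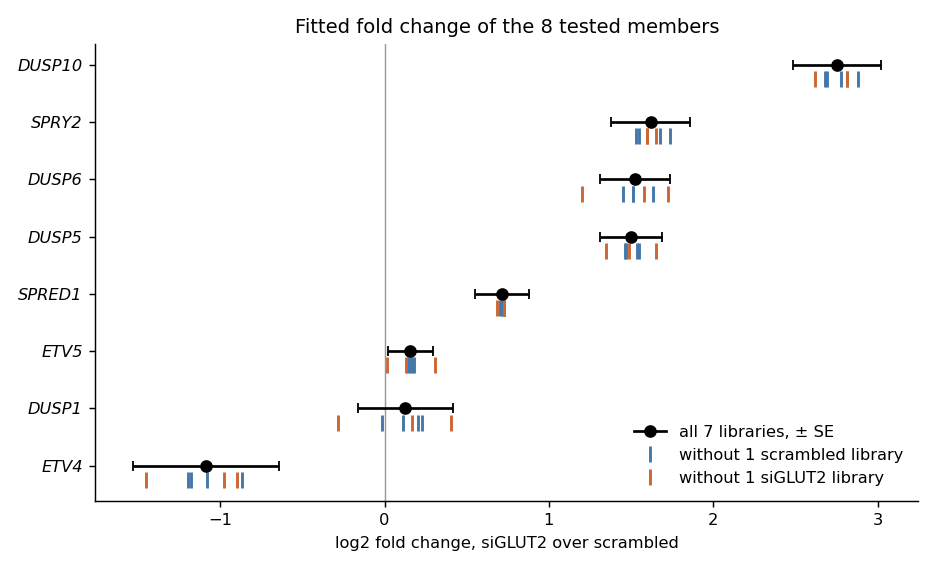
Log2 fold change of siGLUT2 over scrambled (horizontal axis) for the 8 tested members; black points and bars are the edgeR fit over all 7 libraries ± SE, and ticks are fits without 1 scrambled (blue) or 1 siGLUT2 (orange) library. DUSP10 ranges from 2.62 to 2.88, DUSP6 ranges from 1.20 to 1.73, DUSP1 crosses 0 and ETV4 ranges from -1.45 to -0.87.

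Distances between members were taken after each gene's log2 CPM was centred on its own mean over the 7 libraries. They were not scaled, so they also grow with a difference in fold change. The root mean square distance was smallest between DUSP5 and SPRY2 (0.30), SPRED1 and ETV5 (0.34) and DUSP6 and SPRY2 (0.36). SPRED1 lay above its mean in all siGLUT2 libraries (0.37 to 0.46), whereas ETV5 lay below its own in siGLUT2 replicate 2 (-0.27). The largest distance was between DUSP10 and ETV4 (1.91), which had log2 fold changes of 2.75 and -1.09. DUSP5 and DUSP6, the nuclear and the cytoplasmic ERK phosphatase with nearly equal fold changes, were 0.49 apart with opposite rankings within the siGLUT2 group. Within that group replicate 4 was the lowest library for 4 of the 8 members (DUSP1, DUSP6, SPRY2 and SPRED1) and replicate 2 for 3 (DUSP5, DUSP10 and ETV5). No siGLUT2 library was therefore the lowest in all members. In SPRY2 and SPRED1 the highest siGLUT2 value was only 1.09-fold and 1.07-fold the lowest. DUSP10 was at 25.9 CPM in both siGLUT2 replicates 2 and 3. Nothing is read from the order of the libraries in these genes.

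**Figure D3:**
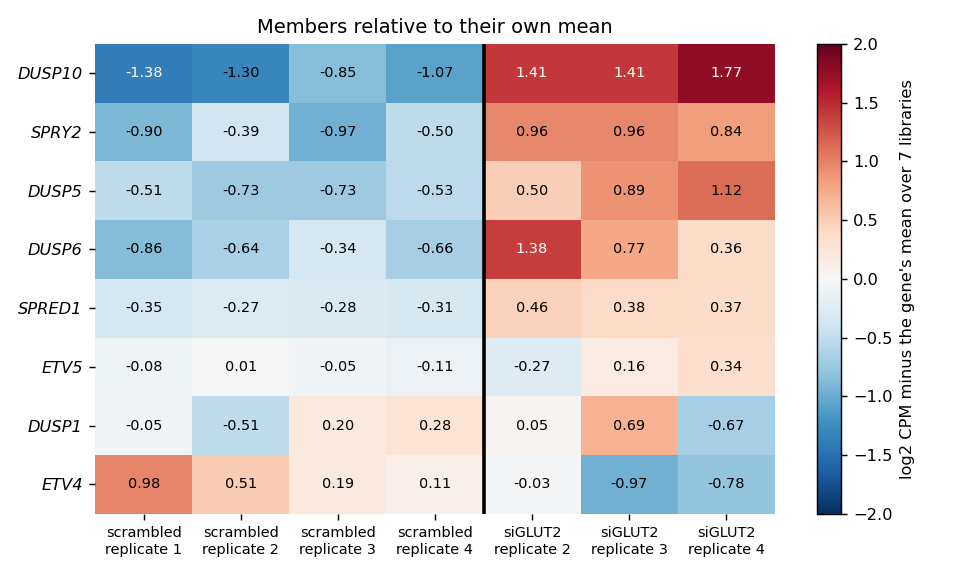
Log2 CPM of the 8 tested members (rows) in each library (columns) minus the gene's mean over the 7 libraries; red is above and blue below that mean, and the black line divides the groups. DUSP10 runs from -1.38 in scrambled replicate 1 to 1.77 in siGLUT2 replicate 4, and DUSP6 from 1.38 to 0.36 across the siGLUT2 libraries, where DUSP5 runs from 0.50 to 1.12.

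Candidates for a pattern like that of DUSP6 were the 8879 tested non-members averaging 10 CPM or more. The 4 nearest to DUSP6 by that distance over the 7 libraries were CDK17 (0.13), B3GALT5 (0.18), MARCHF3 (0.19) and IL18 (0.19), where the median gene was 0.82 away. CDK17, a cyclin-dependent kinase family member, was at 12.8, 13.3, 19.6 and 16.6 CPM in the scrambled and 53.7, 36.0 and 27.1 CPM in the siGLUT2 libraries. It had the same order of the siGLUT2 libraries as DUSP6, with replicate 2 highest. CDK17 was picked for nearness to DUSP6 over these same libraries, so a shared order is built into the choice. IL18 encodes a cytokine and went from 12.2 ± 1.31 (SD, n = 4) to 35.2 ± 6.54 CPM (SD, n = 3).

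Promoter windows of 250 bases before to 50 after an annotated start were found in the RefSeq table (GRCh38.p14) for 6 members, with 9 starts in all: DUSP1, DUSP6, SPRY4 and SPRED1 with 1 each, DUSP10 with 2 and SPRY2 with 3. They were searched on both strands for an ETS word (CCGGAA), an AP-1 word (TGACTCA), the cAMP response element (CRE) word (TGACGTCA), a short CRE word (TGACG, which also lies within the full word) and the CArG box bound by serum response factor. ETS factors and serum response factor are nuclear targets of ERK, and AP-1 is the dimer of Fos and Jun proteins. The ETS word was found in 1 of the 9 windows (SPRY2) and in 17.2% of all 35116 windows. The full CRE word was found in 1 (DUSP1) and in 1.85% of all, and the short word in 4 (DUSP1, DUSP10, SPRY2 and SPRY4) and in 24.6% of all. No member window held the AP-1 word or the CArG box, which stood in 4.95% and 1.29% of all windows. A match describes letters in this window and not a bound site.

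The 250 bases before the start are shown for DUSP1, the only member with a full CRE word, for SPRY2, the only one with an ETS word, for SPRY4 with a short word, and for DUSP6, in which none of the words was found. They lie at chr5:172771196-172771445, chr13:80341127-80341376, chr5:142324248-142324497 and chr12:89352502-89352751, all on the minus strand. They are written 5′ to 3′, with matches in capitals.
DUSP1: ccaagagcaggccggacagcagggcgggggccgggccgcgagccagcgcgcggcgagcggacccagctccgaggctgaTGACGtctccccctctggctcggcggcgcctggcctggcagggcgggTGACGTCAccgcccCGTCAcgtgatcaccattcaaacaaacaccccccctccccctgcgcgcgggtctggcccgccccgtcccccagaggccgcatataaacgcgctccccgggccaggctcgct
SPRY2: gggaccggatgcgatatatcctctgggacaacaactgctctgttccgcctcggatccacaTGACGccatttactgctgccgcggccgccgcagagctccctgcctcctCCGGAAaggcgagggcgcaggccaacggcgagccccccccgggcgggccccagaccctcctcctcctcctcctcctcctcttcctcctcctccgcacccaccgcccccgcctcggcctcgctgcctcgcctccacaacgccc
SPRY4: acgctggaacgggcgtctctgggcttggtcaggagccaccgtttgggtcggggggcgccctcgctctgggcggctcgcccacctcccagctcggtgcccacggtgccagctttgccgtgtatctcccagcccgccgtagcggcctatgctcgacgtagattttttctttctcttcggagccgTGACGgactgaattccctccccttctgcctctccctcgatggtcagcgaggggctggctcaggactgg
DUSP6: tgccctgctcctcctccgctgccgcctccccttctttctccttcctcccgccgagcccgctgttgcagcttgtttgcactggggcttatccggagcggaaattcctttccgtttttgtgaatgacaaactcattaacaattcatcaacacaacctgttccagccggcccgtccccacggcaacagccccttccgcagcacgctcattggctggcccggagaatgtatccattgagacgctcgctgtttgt
The capitals in DUSP1 mark a short word at -172 to -168 from the start, the full word at -125 to -118 and a short word on the other strand at -111 to -107. In SPRY2 they mark a short word at -190 to -186 and the ETS word at -142 to -137, and in SPRY4 a short word at -68 to -64. The SPRY2 stretch belongs to start 1 (base 80341126), which lies outside the gene span given above (80335976 to 80340951). Starts 2 and 3 of SPRY2 held no match.

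**Figure D4:**
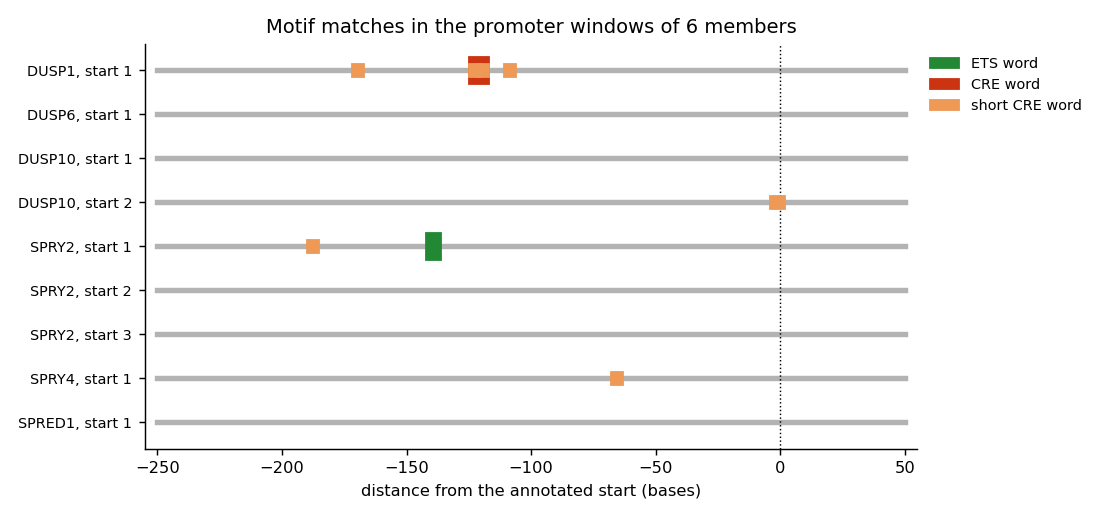
Matches of the searched words in the 9 promoter windows of 6 members, by distance in bases from the annotated start (dotted line); grey bars are the windows, green is the ETS word, red the full CRE word and orange the short CRE word. DUSP1 holds the only full CRE word and SPRY2 the only ETS word, and 5 windows hold none.

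In the 3′ untranslated region, the longest annotated one (GENCODE 29) held the AU-rich word TATTTAT in 6 of the 10 members, against 36.6% of 11654 tested genes. AU-rich words mark many short-lived transcripts of growth and stress genes. DUSP1 held 3 copies in 672 bases and SPRY2 2 copies in 782 bases, where 17.6% and 19.7% of tested genes of similar length held any. DUSP4, SPRY4, SPRED1 and ETV5 held 4, 4, 5 and 1, in longer regions of 2331 to 5585 bases, of which 43.0% to 71.4% of like length held the word. DUSP5, DUSP6, DUSP10 and ETV4 held none. Members with and without the word were found among the called and the uncalled alike.

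The words GACCTTA and ACCTTAA were looked for as well, having been picked by a scan against these same fold changes, so that their presence supports nothing here. Either stood in the 3′ untranslated region of 4 of the 10 members, against 16.4% of tested genes. The stretches are printed to show 1 word in its surroundings, in DNA letters, 5′ to 3′, with that word in capitals. In SPRED1 GACCTTA at base 5047 overlaps ACCTTAA at base 5048, and in ETV4 GACCTTA at base 645 overlaps ACCTTAA at base 646. Only GACCTTA is in capitals in these. SPRED1 also held GACCTTA at base 3520, which is not printed.
DUSP6: aagaatgtaaaACCTTAAattattaataa
DUSP10: tatctccccaaACCTTAActtcatggggc
SPRED1: gctaagctaatGACCTTAagtggcaattg
ETV4: cacatctgccaGACCTTAataaaggcccc
DUSP6, DUSP10 and SPRED1 were higher after siGLUT2 with the word present. In ETV4, the only member with lower values in all siGLUT2 libraries, the word stood at base 645 of 675. Both the words and the members were chosen on these fold changes, so nothing is read from these directions. Regions of similar length held a word in 4.9% of tested genes for ETV4, 16.1% for DUSP6, 10.0% for DUSP10 and 38.9% for SPRED1.

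The rest of the pathway was described by 8 lists of 199 genes with no member among them, of which 179 were tested. After siGLUT2 45 of them passed as higher (25.1%) and 27 as lower (15.1%), beside 13.9% and 14.4% of all tested genes, and their median log2 fold change was 0.19. The lists were drawn up with earlier results of these data known, so their shares are a description and nothing is read from them. Adjusted p-values below are from edgeR's quasi-likelihood test over all tested genes, and fold changes are log2 ± SE. Each ± after a CPM level is the SD over the libraries of its group (scrambled n = 4, siGLUT2 n = 3).

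The list of transcripts that ERK signalling is known to induce had the highest share of rises of the 8. This list too was drawn up with earlier results known. Of its 36 tested genes 18 rose and 3 fell, with a median log2 fold change of 0.67, and the number that rose was 16 to 20 in the other fits. PHLDA1, a feedback gene used beside DUSP6 in ERK output scores, was at 108, 108, 126 and 110 CPM in the scrambled and 318, 292 and 294 CPM in the siGLUT2 libraries (1.41 ± 0.09, adjusted p = 3.33e-10). The urokinase receptor PLAUR went from 35.9 ± 0.92 to 117 ± 5.95 CPM (1.70 ± 0.12, adjusted p = 1.19e-09). The chromatin protein HMGA2 rose by 0.82 ± 0.08. Picked out after its value was seen, EGR1, an immediate early zinc finger factor, fell from 59.8 ± 5.82 to 27.0 ± 8.37 CPM (-1.14 ± 0.19, adjusted p = 7.76e-05). UPP1 (-1.85 ± 0.18) and S100A6 (-0.24 ± 0.07) were the other two that fell, named for that reason alone.

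Other dual-specificity phosphatases mostly did not pass: of 20 tested 3 rose and 2 fell, with a median of 0.18. DUSP2, a nuclear MAPK phosphatase, was at 10.4, 7.92, 8.60 and 7.58 CPM in the scrambled and 18.9, 21.9 and 25.6 CPM in the siGLUT2 libraries (1.36 ± 0.25, adjusted p = 0.000289). DUSP8, which like DUSP10 acts on JNK and p38, rose from 7.05 ± 3.56 to 19.7 ± 1.55 CPM (1.47 ± 0.33, adjusted p = 0.0017). DUSP9, a cytoplasmic ERK phosphatase of the same subgroup as DUSP6, fell from 52.7 ± 2.53 to 32.9 ± 9.57 CPM (-0.68 ± 0.18, adjusted p = 0.0068). Within the siGLUT2 group DUSP9 was lowest (22.9 CPM) in replicate 2, the library with the highest DUSP6. SSH2, a slingshot phosphatase that acts on cofilin, rose by 0.56 ± 0.16; the count of falls was 1 without scrambled replicate 2.

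Of 22 further Sprouty, Spred and receptor feedback genes 5 rose and 3 fell, with a median of 0.30. SPRED2, the closest relative of SPRED1, was at 17.9, 13.7, 16.8 and 9.52 CPM in the scrambled and 33.1, 31.6 and 27.8 CPM in the siGLUT2 libraries (1.08 ± 0.23, adjusted p = 0.000988). NF1, the Ras inhibitor neurofibromin that Spred proteins recruit, fell from 80.0 ± 6.21 to 26.3 ± 8.42 CPM (-1.61 ± 0.18, adjusted p = 7.49e-07), and reads of NF1 can be shared with its pseudogenes. Other GTPase-activating proteins for Ras went both ways, RASAL2 at -0.60 ± 0.12 and RASA3 at 0.98 ± 0.24. The count of rises was 3 without siGLUT2 replicate 2 and with the stricter low-count filter.

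In the ETS list 5 of 16 tested genes rose and 1 fell, with a median of 0.14. ETV1, the PEA3 factor beside ETV4 and ETV5, was at 18.1, 22.7, 19.4 and 22.2 CPM in the scrambled and 86.6, 76.8 and 48.9 CPM in the siGLUT2 libraries (1.78 ± 0.19, adjusted p = 2.44e-07). The 3 PEA3 factors thus had log2 fold changes of 1.78, 0.16 and -1.09, and the differences between them were not tested. Like DUSP6, ETV1 was highest in siGLUT2 replicate 2 and lowest in replicate 4. The epithelial factor ELF3 fell from 94.7 ± 15.9 to 25.3 ± 2.83 CPM (-1.90 ± 0.16, adjusted p = 1.15e-08), while ELK3 (0.90 ± 0.12) and ETS1 (0.47 ± 0.11) rose. Falls numbered 2 without siGLUT2 replicate 2 or without the low-count filter, and 3 without siGLUT2 replicate 4.

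The Ras, Raf, MEK and ERK cascade moved in both directions, with 5 of 24 tested genes higher and 5 lower and a median of 0.12. The kinase MAPK3 (ERK1) was at 35.7, 28.5, 23.4 and 25.8 CPM in the scrambled and 13.6, 11.2 and 9.23 CPM in the siGLUT2 libraries (-1.32 ± 0.24, adjusted p = 0.000193). MAP2K2 (MEK2) fell from 157 ± 9.88 to 82.6 ± 11.2 CPM (-0.93 ± 0.11, adjusted p = 2.37e-06). MAP2K1 (MEK1) lay near the threshold without passing, at 24.9 ± 7.78 and 36.3 ± 2.65 CPM (adjusted p = 0.0589). MAP2K1 passed in 6 of the 16 other fits, over which its adjusted p ran from 0.00938 to 0.196. These were limma-voom without (0.0299) and with group quality weights (0.0408), edgeR without the low-count filter (0.0405) or with a minimum count of 50 (0.0479), and edgeR without scrambled replicate 3 (0.00938) or siGLUT2 replicate 4 (0.0484). The exchange factor SOS2 changed by -1.25 ± 0.24 and the atypical kinase MAPK6 (ERK3) by 0.79 ± 0.11. Falls numbered 3 without scrambled replicate 1, 3 or 4 or siGLUT2 replicate 2, and rises 2 without siGLUT2 replicate 3.

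In the JNK, p38 and ERK5 list, which holds the substrates of DUSP10, 6 of 27 tested genes rose and 7 fell, with a median of -0.12. MAP2K3, which activates p38, rose from 94.7 ± 7.63 to 187 ± 33.8 CPM (0.98 ± 0.12, adjusted p = 2.01e-06), and MAPK8 (JNK1) rose from 26.9 ± 2.40 to 50.5 ± 10.9 CPM (0.91 ± 0.18). The upstream kinases MAP3K7 (-0.71 ± 0.14) and MAP3K1 (-0.74 ± 0.15) fell. Of 10 tested kinases activated by MAPKs 1 rose, MAPKAPK5 (0.68 ± 0.14), and 3 fell, with a median of 0.07. MKNK2, which phosphorylates the cap-binding factor eIF4E, fell from 180 ± 11.4 to 61.8 ± 3.21 CPM (-1.54 ± 0.11, adjusted p = 8.62e-10). RPS6KA1 (RSK1) changed by -0.63 ± 0.17 and MAPKAPK2 by -0.23 ± 0.08, the latter with an adjusted p of 0.0338 that was 0.0686 to 0.109 without scrambled replicate 1, 2 or 3 or siGLUT2 replicate 3. Rises among these kinases numbered 2 without siGLUT2 replicate 2 or 4 or the low-count filter.

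Among 24 tested receptors, ligands and adaptors of the FGF, MET and PDGF families 2 rose and 3 fell, with a median of -0.0022. FGFR3, an FGF receptor, was at 19.5, 18.1, 19.5 and 19.8 CPM in the scrambled and 2.05, 4.90 and 4.69 CPM in the siGLUT2 libraries (-2.29 ± 0.32, adjusted p = 1.12e-05). The adaptor GRB7 fell from 60.9 ± 1.69 to 26.2 ± 8.04 CPM (-1.21 ± 0.18). The collagen receptor DDR1 rose by 0.37 ± 0.11 and the ligand PDGFB by 0.78 ± 0.25. PDGFB had an adjusted p of 0.0241 that was 0.0914 without scrambled replicate 2, 0.0506 without scrambled replicate 3 and 0.14 without siGLUT2 replicate 4; rises numbered 1 without either scrambled library.

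**Figure D5:**
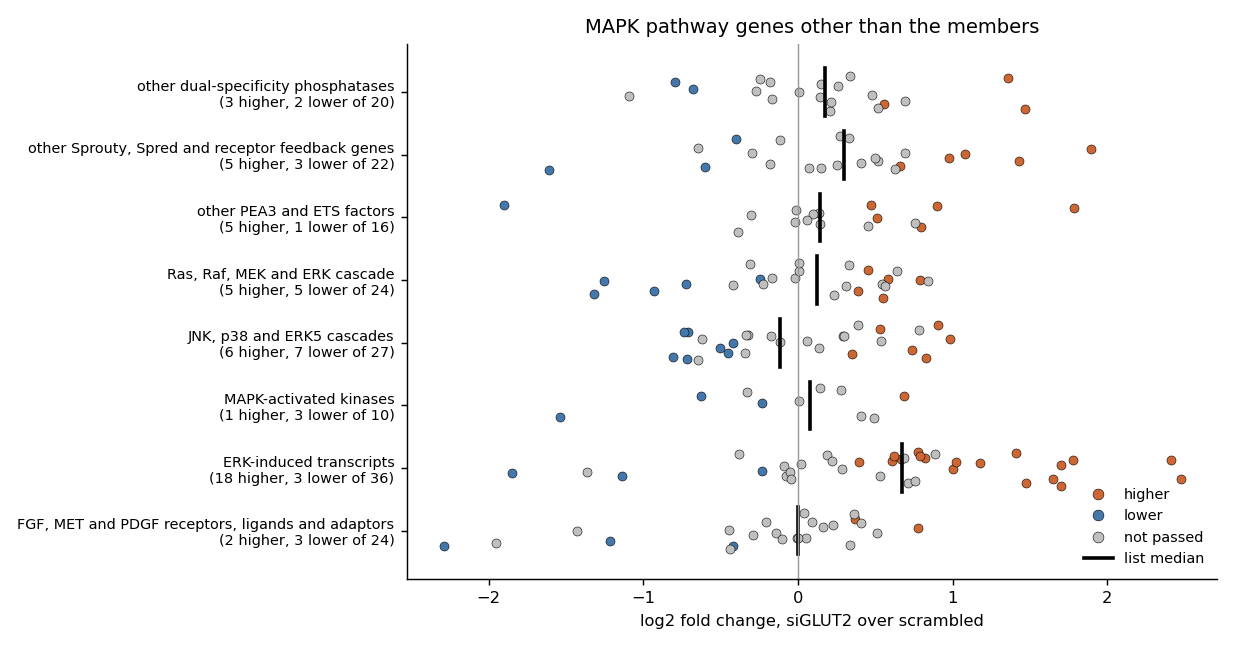
Log2 fold change of siGLUT2 over scrambled (horizontal axis) for the 179 tested genes of the 8 lists (rows; vertical scatter within a row has no meaning); orange and blue points passed an adjusted p of 0.05 as higher and lower, grey points did not, and black lines are list medians. The ERK-induced list lies furthest to the right, with 18 of 36 genes higher and a median of 0.67. All lists were drawn up with earlier results of these data known.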

How the data were processed

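The authors deposited 1 table of raw counts per Ensembl gene for 7 libraries of HK-2 cells. Libraries were made by a commercial digital mRNA-seq service from 125 ng of total RNA and read single-end, per the labels' protocols. The submitters' processing notes name STAR, HTSeq, edgeR and hg38. Not given in the sources used here were their roles and versions, the annotation, whether strand was used in counting, and whether molecular identifiers were. All 7 value columns matched a sample title, and 0 rows named no gene. Of the gene IDs 32807 of 33694 matched the name table.

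Groups came from titles. Calls came from edgeR 4.0.16 (R 4.3.3), with genes kept by filterByExpr at a minimum count of 10, TMM scaling, robust glmQLFit, glmQLFTest without covariates, Benjamini-Hochberg adjustment over 12404 genes. CPM are TMM-scaled, log2 CPM used a prior count of 2, and intervals are at 95%. Without molecular identifiers reads are not independent molecules. P-values measure the spread between libraries that the labels call biological replicates of 1 line.

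The members and lists were chosen with earlier results of these data known. Named were the members, SLC2A2, MAPK3, MAP2K1 and MAP2K2, up to 4 genes per list with the smallest adjusted p below 0.05 (or the 2 highest in CPM where fewer than 2 passed), and the 4 genes nearest DUSP6. Others named for their values are said to be so, and a few genes the rule would name are not reported here.

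Alternatives were DESeq2 1.42.0, limma-voom (limma 3.58.1) with and without a quality weight per group, RLE and upper quartile scaling, no filter, a minimum count of 50, non-robust estimation, a threshold of 0.01, a replicate block and each library left out. List-by-list counts under them were added after seeing the data. The scripts were tested on simulated data.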

Additional observations from a re-analysis of the deposited data

Results flagged for a closer look

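Among 42 genes checked in the 4 scrambled libraries, 3 had 1 library set apart from the other 3, and chance gives about 1 in 20. The check takes the gap as a share of the range of the 4 values. It ignores counting error and the size of the gap, which is small for FGFR3. None was a member. ETS1 was at 113 CPM in scrambled replicate 3 and at 101 to 102 CPM in the others. PHLDA1 was at 126 CPM in scrambled replicate 3 and at 108 to 110 CPM in the others. FGFR3 was at 18.1 CPM in scrambled replicate 2 and at 19.5 to 19.8 CPM in the others.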

How the results depend on the processing

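Over the 16 other fits, DUSP5, DUSP6, DUSP10, SPRY2 and SPRED1 stayed called and higher in each, and DUSP1 and ETV5 stayed uncalled. The members were chosen on this comparison and the fits share its libraries, so these calls are a description only. No fold change of a tested member moved by more than its SD between replicates, but leaving out 1 library can hardly move it further, so nothing is read from that. With a library left out the log2 fold change ran from 1.20 to 1.73 for DUSP6 and from -0.28 to 0.41 for DUSP1. Members called lower numbered 0 to 1 with a library left out, the 1 being ETV4 without siGLUT2 replicate 2; ETV4 was not tested with a minimum count of 50. With a threshold of 0.01, 2264 genes passed, 1097 higher and 1167 lower, among them 17 pathway genes that fell. The same replicate numbers in both groups gave no sign of pairing (correlations of deviations across genes of 0.0095, 0.015 and -0.0032), and a replicate block left 2649 genes, 5 members higher and 0 lower. Under the block 3 genes of the JNK, p38 and ERK5 list and 1 of the receptor list rose, while MAPKAPK2 (adjusted p = 0.13) and DDR1 (0.0684) did not pass; DESeq2 called 5 receptor-list genes lower. Library totals of 5654957 to 8455963 counts left SPRY4 untested and sets the limit on DUSP4.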
